A study of Homo sapiens with 12 samples.

Results

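The immunoproteasome and peptide loading genes are 9 genes that make, carry and trim the peptides shown on HLA class I molecules. They were taken by symbol from the 58735 genes of the deposited tables: PSMB8, PSMB9, PSMB10, TAP1, TAP2, TAPBP, TAPBPL, ERAP1 and ERAP2. Each symbol was found exactly once, and all 9 passed the filter on low counts in each comparison. RNA-seq was done on MDA-MB-231, a long-established human line from a triple-negative breast cancer. The cells carried a guide RNA against UFL1 (sgUFL1), a guide against UFM1 (sgUFM1) or a control guide (sgCtrl). Each targeting guide had its own controls, named sgCtrl_to_sgUFL1 and sgCtrl_to_sgUFM1, which makes 4 groups of 3 libraries. UFM1 is a ubiquitin-like protein, and the ligase UFL1 couples it to target proteins, many of them at the endoplasmic reticulum (ER). The series title speaks of a knockdown and the design text of a KO. The sources used here do not give the promoter, the Cas9 form, whether cells were a clone or a pool, or the time after the guide. Whether replicate libraries are separate cultures is not stated in the labels, so every p-value rests on library-to-library spread, which could be technical only.

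The proteasome cuts cytosolic proteins into peptides, and in the immunoproteasome its constitutive catalytic subunits are replaced by PSMB8, PSMB9 and PSMB10. The TAP1 and TAP2 proteins together form the transporter that moves peptides into the ER, where tapasin (TAPBP) and the tapasin-like TAPBPL edit the peptides bound by class I molecules and the aminopeptidases ERAP1 and ERAP2 trim them. These genes are known as targets of interferon gamma, and tumour cells are known to vary widely in their expression.

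The count and FPKM tables disagreed on the names of 6 libraries. Each FPKM column, multiplied by gene length, was proportional to exactly 1 count column, and for 6 of 12 libraries that column bore the same name. The 3 libraries named sgUFL1 in the count table were named sgCtrl_to_sgUFM1 in the FPKM table and are called set 1. The 3 named sgCtrl_to_sgUFM1 in the count table were named sgUFL1 in the FPKM table and are called set 2. Libraries of sgUFM1 and of sgCtrl_to_sgUFL1 (below, the sgUFL1 controls) were named alike in both. All comparisons are therefore given under both namings.

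The targeted transcripts were checked first. UFM1 averaged 65.6 CPM (counts scaled by library size, with TMM factors) in the sgUFL1 controls, 53.5 in set 1, 53.9 in set 2 and 38.7 in sgUFM1, and was lower in sgUFM1 than in each other set (log2 -0.76, -0.47 and -0.47, adjusted p = 0.0026, 0.01 and 0.00012 in that order, and -0.48, -0.56 and -0.73 with the offsets for GC content and length described below). UFL1 averaged 24.9, 18, 12.5 and 23.1 CPM in the same order. It was lower in set 2 than in the sgUFL1 controls by edgeR's quasi-likelihood test (log2 difference -1.02, adjusted p = 0.0017, and -0.47, adjusted p = 0.047, with offsets), while set 1 gave -0.45 (adjusted p = 0.13). The set with the lowest mean UFL1 level is therefore labelled as a control in the count table and as sgUFL1 in the FPKM table, and no group was assigned from these levels. Library totals ran from 15342793 to 18033331 counts. The mean GC content of the counted genes was 47.59% to 48.66% in the sgUFL1 controls and 49.09% to 50.26% in the other 9 libraries. The markers listed for the line (VIM, CD44, AXL, CAV1, KRT18) summed to 2424 to 3360 CPM and the luminal markers to 73.5 to 113 CPM. KRT18 is a keratin of luminal cells and not a basal-type marker. It read 207 to 331 CPM, above the luminal sum, so the 2 sums do not separate basal from luminal type by keratins. Of 12 leukocyte markers, 9 stayed under 1 CPM in all 12 libraries, and CD3E and MS4A1 were at 0 in each of them. Their summed level was between 5.27 and 7.92 CPM in the sgUFL1 controls, 5.75 and 7.5 in set 1, 10.9 and 13.1 in set 2, and 7.62 and 9.60 in sgUFM1, and its part in the results was not tested. Most of the sum came from HLA-DRA, CD14 and CD8A, with means of 6.25, 3.64 and 1.98 CPM in set 2 and 2.61, 2.59 and 0.628 in the sgUFL1 controls. PTPRC averaged 0.0378 CPM in set 2 and 0.163 in the sgUFL1 controls.

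The promoters are shown because they carry the letters through which interferon-regulatory factors are known to bind genes of this pathway. RefSeq promoter windows of GRCh38.p14, from 250 bases before to 50 after an annotated start, were available for all 9 genes. They were searched on both strands for the core of the interferon-stimulated response element, GAAA followed by any 2 bases and GAAA again, which on the other strand reads TTTC, any 2 bases, TTTC. The core was present in 7 of the 9 genes, against 1195 of 27305 genes with a window (4.38%) and 3.57% of 35116 windows. The stretches below are written 5′ to 3′ on the gene's strand, and capitals mark the core; where 2 matches overlap, the capitals run through both.
PSMB8: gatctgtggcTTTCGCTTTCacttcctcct
PSMB10: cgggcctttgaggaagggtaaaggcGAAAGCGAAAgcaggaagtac
TAP1: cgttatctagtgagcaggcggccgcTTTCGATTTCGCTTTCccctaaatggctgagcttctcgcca
TAP2: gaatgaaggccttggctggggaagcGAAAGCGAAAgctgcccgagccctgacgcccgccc
TAPBP: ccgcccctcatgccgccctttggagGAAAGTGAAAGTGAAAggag
ERAP1: cgggctccacTTTCACTTTCggtcctgggg
ERAP2: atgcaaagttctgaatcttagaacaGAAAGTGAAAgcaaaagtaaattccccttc
They lie on the minus strand at chr6:32844032-32844061 (PSMB8), chr16:67936851-67936896 (PSMB10), chr6:32853798-32853863 (TAP1), chr6:32838763-32838822 (TAP2), chr6:33314079-33314123 (TAPBP) and chr5:96807924-96807953 (ERAP1), and on the plus strand at chr5:96876445-96876499 (ERAP2).

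Read on the strand with GAAA, PSMB8, PSMB10, TAP1 and TAP2 all held the letters GAAAGCGAAA, and TAPBP, ERAP1 and ERAP2 held GAAAGTGAAA. TAP1 and TAPBP each held 2 overlapping cores, the other one in TAP1 being GAAATCGAAA. By the RefSeq starts of these windows, TAP1 and PSMB9 begin back to back on opposite strands 488 bases apart. The TAP1 cores lie between both starts, 354 bases from that of PSMB9 and so outside its window. The windows of PSMB9 and TAPBPL did not hold the core, which says nothing of other positions. The gamma-activated site TTCNNNGAA was found in PSMB8 and TAP1, 2 of 9 genes, against 9.38% of all genes. The kB motif of NF-kB factors was found in TAP1, TAPBP, TAPBPL and ERAP1, 4 of 9, against 13.3%. The map of matches by distance from the start shows where each lies; a match describes letters and is not evidence of binding here.

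**Figure D1:**
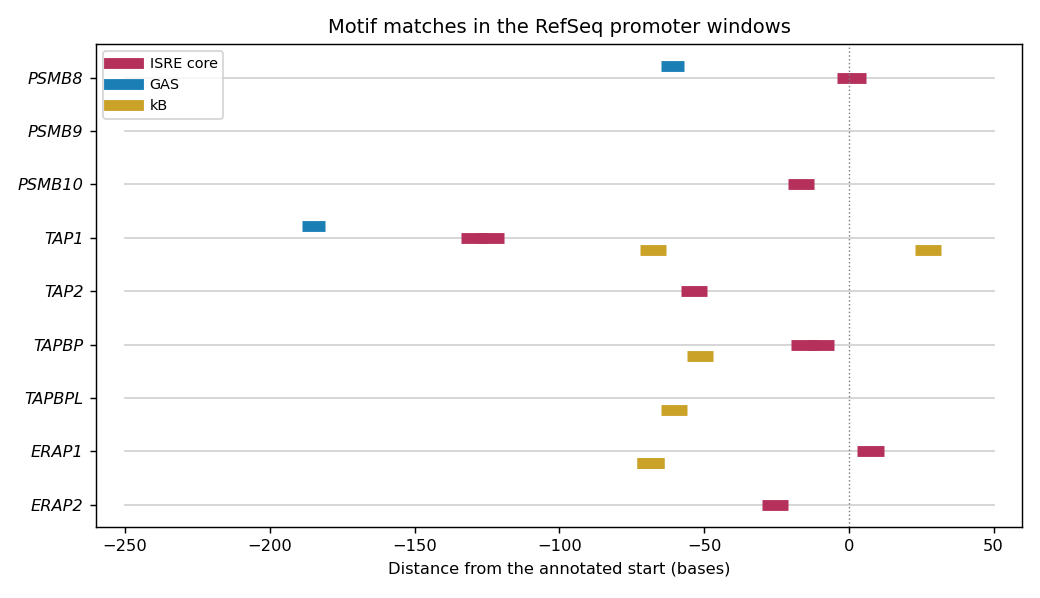
Motif matches in the RefSeq promoter window of each gene, by distance in bases from the annotated start (dotted line); grey lines are the 250 bases before to 50 after it, and windows of alternative starts are drawn on 1 line. The core of the interferon-stimulated response element is present for 7 of 9 genes, all but PSMB9 and TAPBPL.

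The genes PSMB8, PSMB9, TAP1, TAP2 and TAPBP sit in the major histocompatibility region of chromosome 6 (GRCh38), and the first 4 are neighbours. TAP2 spans chr6:32821833-32838780, PSMB8 chr6:32840717-32844703, TAP1 chr6:32845209-32853978 and PSMB9 chr6:32844136-32859585, with TAPBP apart at chr6:33299694-33314387. These are the gene records of the deposited tables. The PSMB9 record begins before the RefSeq start used above and spans all of TAP1, so the 2 annotations differ for PSMB9. ERAP1 (chr5:96760810-96808100) and ERAP2 (chr5:96875939-96919716) are neighbours on chromosome 5. PSMB10 lies at chr16:67934502-67937087 and TAPBPL at chr12:6451690-6466517. In deposited FPKM, which is per length, the mean over 12 libraries was highest for TAPBP at 29.3, followed by PSMB8 at 23.4, TAP2 at 21.9, TAP1 at 16.8, PSMB9 at 9.76, ERAP1 at 9.34, PSMB10 at 5.19, ERAP2 at 1.41 and TAPBPL at 1.23. The ranges over the 12 libraries were 16.7 to 37.5 FPKM for TAPBP, 21.2 to 26.0 for PSMB8, 18.2 to 24.2 for TAP2, 12.2 to 20.2 for TAP1, 6.67 to 12.5 for PSMB9, 7.26 to 12.3 for ERAP1, 1.56 to 8.62 for PSMB10, 1.06 to 2.05 for ERAP2 and 0.791 to 1.86 for TAPBPL. Each gene thus overlapped its neighbours in the order, the first place of TAPBP included. PSMB9 and ERAP1 changed places between sets: PSMB9 was the lower of the pair in the sgUFL1 controls (7.80 ± 1.08 against 8.96 ± 0.511 FPKM, SD, n = 3) and in sgUFM1 (9.74 ± 1.11 against 12.2 ± 0.220), and the higher in set 1 and set 2. Exons overlapped other genes for 7 of the 9. No source used here gives the strand setting, so counts are uncertain where the other gene is on the opposite strand. Among these were TAPBPL (10.6% of its exons opposite VAMP1), PSMB8 (20.6% opposite PSMB8-AS1), PSMB9 (4.5% opposite PSMB8) and ERAP1 (3.8% opposite CAST). CAST had a mean count of 2868.2 against 1214.4 for ERAP1, and PSMB8 one of 1153.2 against 493.7 for PSMB9. On the same strand, where no strand setting would help, PSMB10 shared 34.8% with AC040162.1 and TAP2 32.3% with AL669918.1. The mean counts of those 2 other genes were 13.8 and 0.0. PSMB9 shared 5.7% with PSMB8-AS1 on the same strand, which had a mean count of 19.2.

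**Figure D2:**
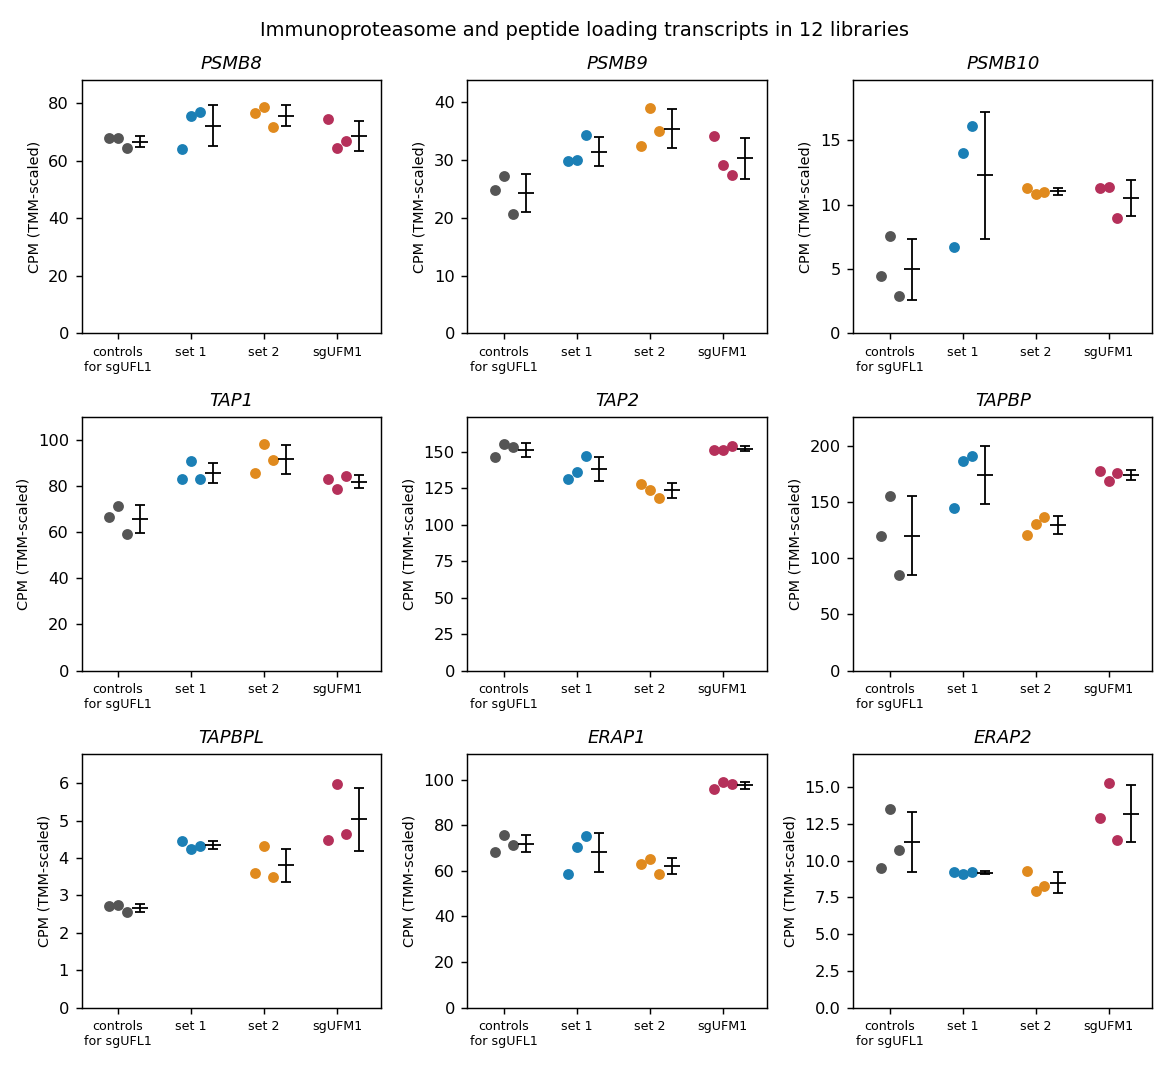
TMM-scaled CPM of the 9 genes in each of 12 libraries, 1 panel a gene with its own axis from 0; points are libraries in replicate order, and the black dash with bars is the mean ± SD of 3. ERAP1 is at 95.7 to 98.8 in sgUFM1 and at 58.7 to 75.8 in the other 9 libraries, and PSMB9, TAP1 and TAPBPL are lowest in the sgUFL1 controls.

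The catalytic subunits differed in how they varied. PSMB8, the chymotrypsin-like subunit of the immunoproteasome, read 67.8, 67.8 and 64.5 CPM in the sgUFL1 controls, 64.1, 75.7 and 76.9 in set 1, 76.6, 78.8 and 71.6 in set 2, and 74.4, 64.5 and 66.8 in sgUFM1. Only set 2 and the sgUFL1 controls did not overlap, and PSMB8 passed the test in no comparison. PSMB9, which takes the place of PSMB6, read 24.7, 27.2 and 20.7 CPM in the sgUFL1 controls, 29.8, 30 and 34.3 in set 1, 32.3, 38.9 and 34.9 in set 2, and 34.1, 29.1 and 27.4 in sgUFM1. Every library outside the sgUFL1 controls was above all 3 of them, while the other sets overlapped each other. PSMB10, which takes the place of PSMB7, had the widest relative spread, with 4.49, 7.56 and 2.92 CPM in the sgUFL1 controls and 6.74, 14.0 and 16.1 in set 1. Its values were 11.3, 10.8 and 11.0 CPM in set 2 and 11.3, 11.4 and 8.95 in sgUFM1. Set 1 reached down into the range of the sgUFL1 controls; set 2 and sgUFM1 did not.

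The transporter genes had different patterns, TAP1 lowest in the sgUFL1 controls and TAP2 lowest in set 2. TAP1 read 66.6, 71.5 and 59.4 CPM in the sgUFL1 controls, 83.3, 90.9 and 83.2 in set 1, 85.5, 98.1 and 91.3 in set 2, and 83.0, 78.6 and 84.4 in sgUFM1. The sgUFL1 controls lay below all other libraries. TAP2 read 146, 155 and 153 CPM in the sgUFL1 controls, 131, 136 and 147 in set 1, 128, 124 and 118 in set 2, and 151, 151 and 154 in sgUFM1. Here set 2 lay below all other libraries, and sgUFM1 fell within the range of the sgUFL1 controls. The FPKM ratio of TAP1 to TAP2, computed after these values were seen, was 0.579 ± 0.0534 in the sgUFL1 controls, 0.717 ± 0.0225 in sgUFM1, 0.828 ± 0.0685 in set 1 and 0.988 ± 0.0869 in set 2 (SD, n = 3). No 2 sets overlapped in this ratio, though set 1 reached 0.887 and set 2 began at 0.889. The 2-sided exact permutation p was 0.1 for each pair, the smallest that 3 against 3 libraries allow. The ratio carries no offset for GC content. With offsets, TAP1 in sgUFM1, set 1 and set 2 was at log2 0.11, 0.08 and 0.09 against the sgUFL1 controls, and TAP2 at 0.01, -0.12 and -0.28.

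The peptide editors were lowest in the sgUFL1 controls on average. TAPBP, the tapasin that bridges class I molecules to the transporter, read 120, 156 and 85.1 CPM in the sgUFL1 controls, 145, 187 and 191 in set 1, 121, 131 and 137 in set 2, and 178, 169 and 176 in sgUFM1. Set 2 lay wholly within the wide range of the sgUFL1 controls, and sgUFM1 above it. TAPBPL read 2.73, 2.74 and 2.55 CPM in the sgUFL1 controls, 4.45, 4.25 and 4.33 in set 1, 3.61, 4.31 and 3.49 in set 2, and 4.47, 5.99 and 4.63 in sgUFM1. The 3 sgUFM1 libraries lay above all 9 others and the sgUFL1 controls below all 9 others, though the gap between sgUFM1 and set 1 was small.

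The ER aminopeptidases were highest in sgUFM1 on average. ERAP1 read 68.4, 75.8 and 71.5 CPM in the sgUFL1 controls, 58.7, 70.5 and 75.2 in set 1, 63.0, 65.1 and 58.4 in set 2, and 95.7, 98.8 and 97.9 in sgUFM1. All sgUFM1 libraries stood clear of the other 9, which overlapped each other except for the sgUFL1 controls and set 2. ERAP2 read 9.52, 13.5 and 10.7 CPM in the sgUFL1 controls, 9.21, 9.09 and 9.25 in set 1, 9.31, 7.94 and 8.24 in set 2, and 12.9, 15.3 and 11.4 in sgUFM1. Its sgUFM1 libraries were above set 1 and set 2 but overlapped the sgUFL1 controls. Libraries of sgUFM1 above all 9 others were found for 2 of the 9 genes (ERAP1 and TAPBPL) against 3.9% of 15821 genes, and sgUFL1 controls below all 9 others for 3 (PSMB9, TAP1 and TAPBPL) against 6.85%. In bulk RNA, fewer cells with a transcript and less of it per cell cannot be told apart.

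Between sgUFM1 and the sgUFL1 controls, the pair of sets named alike in both tables, ERAP1, PSMB10 and TAPBPL rose in sgUFM1. ERAP1 was 1.35-fold higher (log2 0.44, SE 0.10, adjusted p = 0.019), PSMB10 was 2.11-fold higher (1.08, SE 0.28, adjusted p = 0.032) and TAPBPL was 1.88-fold higher (0.91, SE 0.24, adjusted p = 0.035), by edgeR's quasi-likelihood test. The count was 3 of 9 higher, against 5.57% of all genes tested, and 0 lower, against 4.43%. TAPBP (log2 0.53, adjusted p = 0.061), TAP1 (0.31, 0.08) and PSMB9 (0.32, 0.17) did not pass, although neither they nor the 3 called genes overlapped between the sets; for all genes tested, 17.1% were higher with no overlap. ERAP2 was at 0.23 (adjusted p = 0.44), PSMB8 at 0.04 and TAP2 at 0.0047. The median over the 9 genes was 0.32, against -0.0045 over all genes tested.

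These calls were close to the threshold. With offsets for gene GC content and length in each library, ERAP1 kept its call (log2 0.61, adjusted p = 0.0041), while PSMB10 (0.82, 0.055) and TAPBPL (0.70, 0.087) lost it; 4.33% of all genes were then higher and 4.02% lower. ERAP1 is of low GC content (39.7%), PSMB10 and TAPBPL of high (60.1% and 57.6%). Without sgUFL1 control 1 or any 1 of the sgUFM1 libraries none of the 3 passed (ERAP1 0.40 to 0.45, adjusted p = 0.06 to 0.1). Without sgUFL1 control 3 only ERAP1 passed, with PSMB10 at 0.81 (adjusted p = 0.068) and TAPBPL at 0.88 (0.08). Without sgUFL1 control 2 there were 6 calls, PSMB9 (0.41, adjusted p = 0.041), TAP1 (0.38, 0.017) and TAPBP (0.77, 0.00079) being added.

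**Figure D3:**
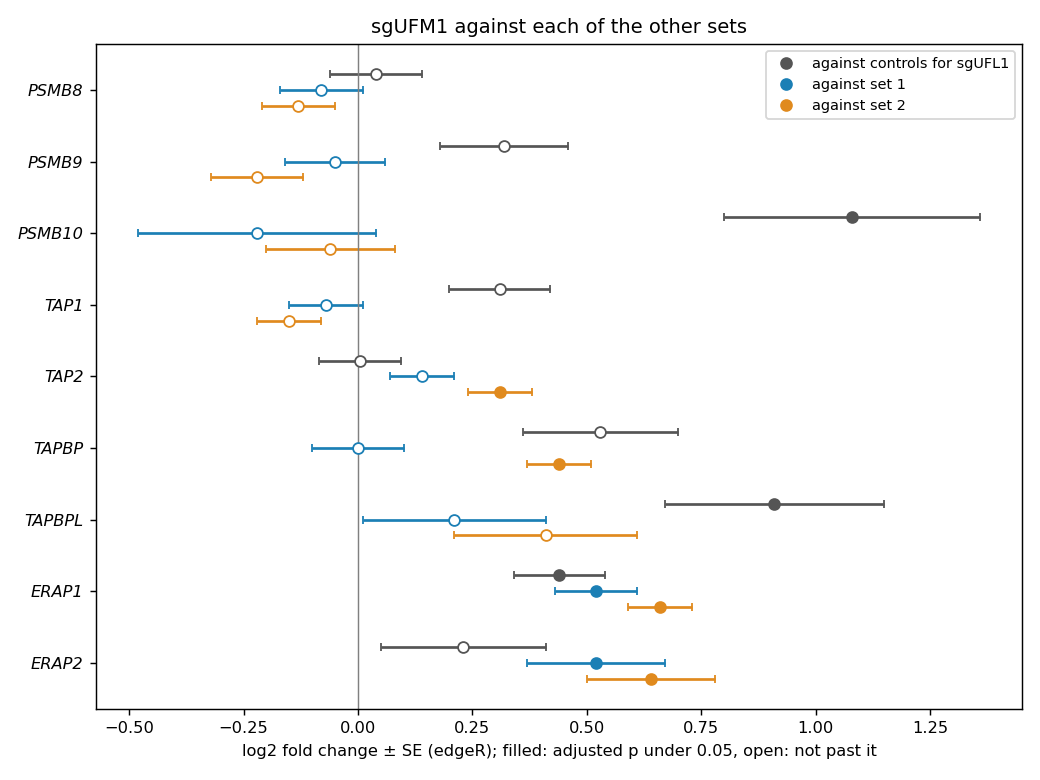
Log2 fold change ± SE of sgUFM1 against each of the other 3 sets for the 9 genes (edgeR, 6 libraries a comparison); filled points passed adjusted p under 0.05. ERAP1 is filled in all 3 comparisons, at 0.44, 0.52 and 0.66, and the 3 comparisons share the sgUFM1 libraries.

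The guide against UFM1 was then compared with its own controls. Under the names of the count table these are set 2, and ERAP1, ERAP2, TAPBP and TAP2 rose. ERAP1 was 1.58-fold higher (log2 0.66, SE 0.07, adjusted p = 1.2e-06), ERAP2 was 1.56-fold higher (0.64, SE 0.14, adjusted p = 0.0014), TAPBP was 1.35-fold higher (0.44, SE 0.07, adjusted p = 3.8e-05) and TAP2 was 1.24-fold higher (0.31, SE 0.07, adjusted p = 0.00099). The count was 4 of 9 higher against 19.3% of all genes, and 0 lower against 18.5%. The 4 stayed called with each library left out in turn, but TAPBP lost its call in the fit over 12 libraries (0.43, adjusted p = 0.074) and ERAP2 in limma on FPKM without a filter (0.47, 0.088). With GC content and length offsets TAPBPL was added (0.60, adjusted p = 0.021, against 0.41 and 0.11 without offsets), which made 5 of 9 against 16.2% of all genes higher, and 0 against 17% lower. Values for the immunoproteasome subunits and TAP1 were below 0 and did not pass: PSMB9 at -0.22 (adjusted p = 0.088), TAP1 at -0.15 (0.11), PSMB8 at -0.13 (0.19) and PSMB10 at -0.06 (0.78). Without set 2 library 1, PSMB9 (-0.29, adjusted p = 0.019) and TAP1 (-0.21, 0.017) passed, as did PSMB9 without sgUFM1 library 1 (-0.31, 0.023).

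Under the names of the FPKM table the controls of sgUFM1 are set 1, and both aminopeptidases rose. ERAP1 was 1.43-fold higher (log2 0.52, SE 0.09, adjusted p = 0.0089) and ERAP2 was 1.44-fold higher (0.52, SE 0.15, adjusted p = 0.047). That was 2 of 9 against 4.57% of all genes, with 0 lower against 5.15%. The remaining 7 ran from -0.22 (PSMB10) to 0.21 (TAPBPL), and TAPBP, 1.35-fold higher under the other naming, was at -0.0002. The ERAP2 call was lost with offsets (0.42, adjusted p = 0.099) and without any 1 library other than set 1 library 1 (0.40 to 0.62, adjusted p = 0.084 to 0.22). ERAP1 kept its call with offsets (0.40, adjusted p = 0.037), under which 4.16% of all genes were higher and 3.55% lower, but not without sgUFM1 library 2 (0.51, 0.07) or 3 (0.52, 0.059). Without set 1 library 1, PSMB10 passed as lower in sgUFM1 (-0.51, adjusted p = 0.011). Across the 3 comparisons, which share the sgUFM1 libraries, ERAP1 was called higher in each, as were 183 of 14669 genes tested in all 3 (1.25%).

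For the guide against UFL1, 4 of the 9 genes passed edgeR's test with set 2 as the sgUFL1 libraries and 0 with set 1. Under the names of the FPKM table (set 2 against the sgUFL1 controls) PSMB10 rose 2.18-fold (log2 1.13, SE 0.27, adjusted p = 0.0068), PSMB9 rose 1.44-fold (0.53, SE 0.14, adjusted p = 0.011) and TAP1 rose 1.37-fold (0.46, SE 0.11, adjusted p = 0.0082). TAP2 fell to 0.806-fold (-0.31, SE 0.10, adjusted p = 0.032). The count of 3 higher stands against 17.4% of all genes and that of 1 lower against 18.4%. With offsets PSMB9 (0.60, adjusted p = 0.014) and TAP2 (-0.28, 0.039) kept their calls, while PSMB10 (0.59, 0.13) and TAP1 (0.09, 0.45) did not; of all genes 4.9% were then higher and 4.06% lower. Over the 12 libraries, which share sets and scaling, r with their mean GC content was 0.96 for TAP1 and 0.84 for PSMB10. It was 0.96 for PSMB9 and -0.69 for TAP2, which kept their calls, and a part of base composition was not tested. Without set 2 library 2, PSMB9 (0.46, adjusted p = 0.075) and TAP1 (0.41, 0.062) did not pass, and without any 1 of the set 2 libraries TAP2 did not (-0.28 to -0.32, adjusted p = 0.07 to 0.18).

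Under the names of the count table (set 1 against the sgUFL1 controls) 0 of 9 genes passed edgeR's test in either direction, against 1.08% of all genes higher and 0.02% lower. At an unadjusted p under 0.05 there were 5 of the 9, against 4205 of all 14996 genes tested. DESeq2 called 2 higher, against 1180 of 14996 genes. Without a filter on counts edgeR called 2 higher, against 1508 of 29654 genes. The fit over 12 libraries called 5 higher, against 1992 of 15821 genes. The values were 1.31 for PSMB10 (SE 0.39, adjusted p = 0.087), 0.71 for TAPBPL (0.096), 0.55 for TAPBP (0.13), 0.40 for TAP1 (0.081) and 0.39 for PSMB9 (0.12). The values of set 2 against the same controls were 1.13, 0.49, 0.09, 0.46 and 0.53 in that order. The SE for PSMB10 was 0.39 with set 1 and 0.27 with set 2. Without sgUFL1 control 2, PSMB10 (1.75, adjusted p = 0.016), TAP1 (0.47, 0.033) and TAPBP (0.79, 0.018) passed, and without set 1 library 1 PSMB10 did (1.61, 0.043). Both comparisons share the sgUFL1 controls.

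Set 1 and set 2 were also compared with each other by edgeR. Of the 9, 0 passed in either direction, against 0.705% of all genes higher in set 1 and 1.49% lower. With shares that low, 0 of 9 does not show that the sets are alike in these genes. At an unadjusted p under 0.05 there was 1, TAPBP, against 3002 of all 15033 genes tested. DESeq2 called 1 higher, against 283 of 15033 genes. TAPBP was 1.34-fold higher in set 1 (log2 0.42, SE 0.10, adjusted p = 0.064), without overlap, and passed with offsets (0.49, adjusted p = 0.028), 1 of 9 against 1.04% of all genes higher and 1.77% lower. It also passed without set 1 library 1 (0.53, adjusted p = 0.00015), as did PSMB10 (0.43, 0.034).

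The contrast between the guide effects does not depend on the naming, because set 1 and set 2 both enter it with a minus sign. It subtracts the effect of the UFL1 guide over its controls from that of the UFM1 guide over its own, in 1 fit of 12 libraries. ERAP2 (log2 0.93, SE 0.22, adjusted p = 0.0055), ERAP1 (0.73, SE 0.13, adjusted p = 0.0011) and TAP2 (0.43, SE 0.11, adjusted p = 0.007) were higher in it. PSMB10 (-1.36, SE 0.42, adjusted p = 0.022), PSMB9 (-0.60, SE 0.18, adjusted p = 0.017) and TAP1 (-0.54, SE 0.13, adjusted p = 0.0047) were lower. The 3 of 9 higher stand against 17% of all genes and the 3 lower against 17.9%. PSMB8 (-0.26, adjusted p = 0.14), TAPBPL (-0.30, 0.43) and TAPBP (-0.11, 0.74) did not pass. The aminopeptidases and TAP2 were thus on one side of 0, and both immunoproteasome subunits that passed were with TAP1 on the other.

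With offsets for GC content and length only 2 of these 6 calls remained. TAP2 was at 0.42 (adjusted p = 0.0089) and PSMB9 at -0.66 (0.022), close to their values without offsets; 3.94% of all genes were then higher and 5.44% lower. ERAP1 moved to 0.19 (adjusted p = 0.48), ERAP2 to 0.45 (0.24), PSMB10 to -0.65 (0.3) and TAP1 to -0.07 (0.69). The GC content was 49.1% for TAP2 and 46.9% for PSMB9, 39.7% to 40.5% for ERAP1 and ERAP2, and 57.5% to 60.1% for TAP1 and PSMB10. The offsets act by this GC content, so which calls they keep cannot show a cause, and none was tested. TAP1, TAP2, ERAP1 and ERAP2 passed with each library left out in turn. PSMB9 did not pass without set 1 library 3, set 2 library 2 or sgUFM1 library 2 or 3 (-0.51 to -0.54, adjusted p = 0.05 to 0.061), nor PSMB10 without sgUFL1 control 3, set 1 library 3 or sgUFM1 library 3 (-1.06 to -1.23, adjusted p = 0.059 to 0.065).

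**Figure D4:**
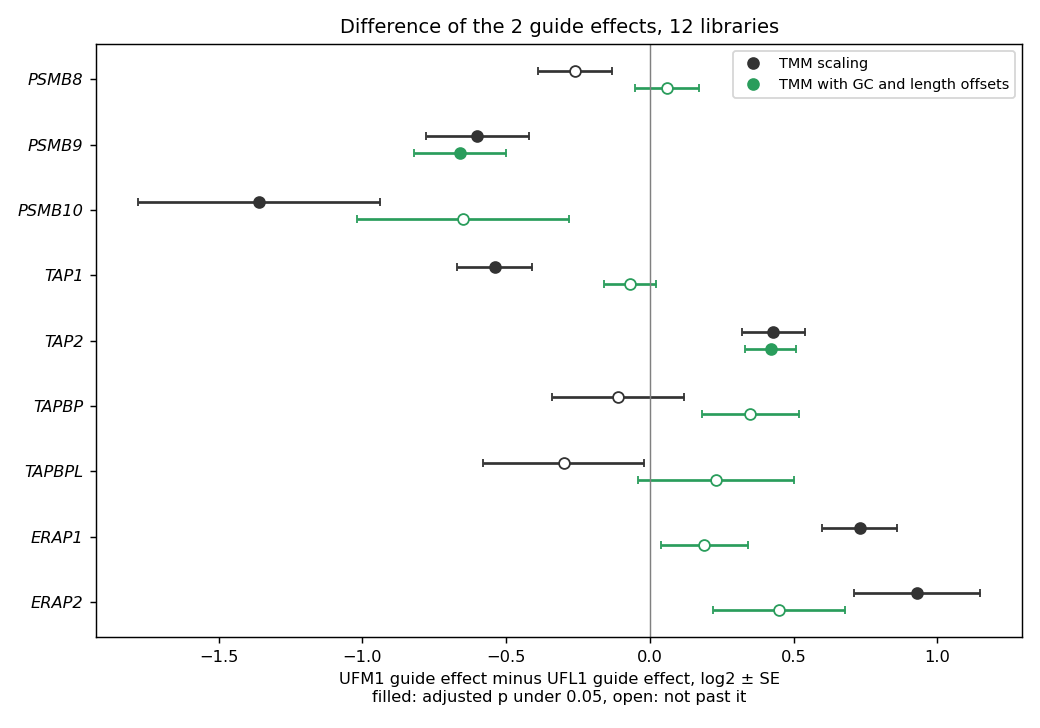
Effect of the UFM1 guide minus effect of the UFL1 guide on the log2 scale ± SE, with TMM scaling alone (dark) and with GC content and length offsets (green), over 12 libraries; filled points passed adjusted p under 0.05. With TMM scaling 6 genes are filled, and with offsets only TAP2 (0.42) and PSMB9 (-0.66).

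The immunoproteasome subunits were set beside the constitutive subunits they replace. PSMB5, PSMB6 and PSMB7, the constitutive catalytic subunits, were lower in sgUFM1 than in set 2 in 3 of 3 cases (log2 -0.30, -0.22 and -0.37, adjusted p = 0.0017, 0.021 and 0.00011), against 18.5% of all genes. With offsets PSMB6 lost its call (-0.04, adjusted p = 0.58). In set 2 against the sgUFL1 controls, PSMB5 (0.52, adjusted p = 0.0062) and PSMB7 (0.44, 0.017) rose, 2 of 3 against 17.4% of all genes, and PSMB6 did not pass (0.28, 0.099); with offsets PSMB7 lost its call (0.32, adjusted p = 0.055). In the other comparisons of 2 sets, 0 of 3 passed edgeR's test or DESeq2's. At an unadjusted p under 0.05 these held 1 of 3 in set 1 against the sgUFL1 controls and 0 elsewhere. Of all genes tested, 4205 of 14996 had such a p in set 1 against those controls. PSMB5 (-0.72, adjusted p = 0.0041) and PSMB7 (-0.68, 0.0081) were lower in the difference of the guide effects. The ratios within a library were computed after these values were seen. PSMB10 over PSMB7, in FPKM, was 0.0235 ± 0.00718 in the sgUFL1 controls, 0.0472 ± 0.0132 in set 1, 0.0393 ± 0.00328 in set 2 and 0.0489 ± 0.00751 in sgUFM1 (SD, n = 3). The sgUFL1 controls lay below all other libraries in this ratio, with a 2-sided exact permutation p of 0.1, the smallest possible, against each set. PSMB8 over PSMB5 went the other way, 0.231 ± 0.0266 in the sgUFL1 controls against 0.187 ± 0.00831 in set 1, 0.179 ± 0.0182 in set 2 and 0.2 ± 0.00491 in sgUFM1, again without overlap between the controls and the rest. PSMB9 over PSMB6 overlapped between all sets, at 0.0967 ± 0.0107, 0.111 ± 0.0270, 0.114 ± 0.00882 and 0.114 ± 0.00911 in the same order.

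**Figure D5:**
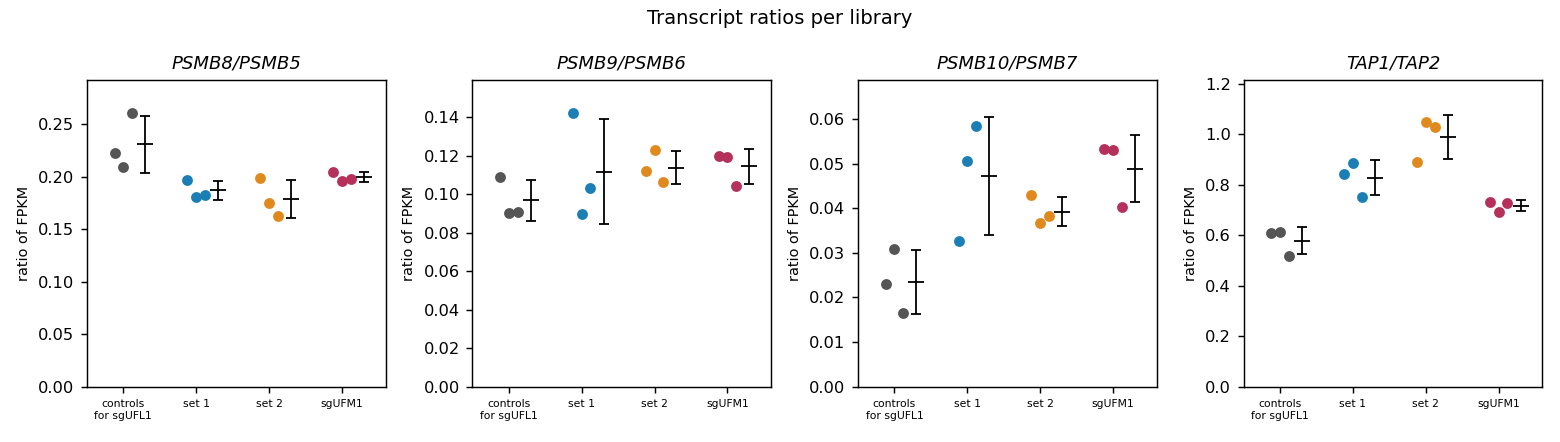
Ratios of deposited FPKM within each of 12 libraries, with the mean ± SD of 3 as a black dash with bars and axes from 0. PSMB10/PSMB7 is lowest and PSMB8/PSMB5 highest in the sgUFL1 controls, and PSMB9/PSMB6 overlaps between sets. TAP1/TAP2 overlaps between no 2 sets, though set 1 and set 2 nearly touch (0.887 and 0.889). The ratios carry no offsets for GC content.

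Other genes of the pathway were taken from lists. Among the chaperones that fold and load class I molecules, 3 of 4 were higher in sgUFM1 than in set 2, against 19.3% of all genes, including the lectin CANX (log2 0.62, adjusted p = 2.1e-07) and the disulfide isomerase PDIA3 (0.56, 9.1e-07), while CALR was at -0.0033. With offsets 4 of 4 were higher there, against 16.2% of all genes. CANX was then at 0.44 (adjusted p = 1.0e-07), PDIA3 at 0.46 (7.0e-08) and CALR at 0.13 (0.028). Against set 1, 1 of 4 was higher, against 4.57% of all genes. Against the sgUFL1 controls 0 of 4 passed in edgeR, in DESeq2 and at an unadjusted p under 0.05. In set 2 against the sgUFL1 controls CANX fell (-0.53, adjusted p = 0.0068), a call that was lost with offsets (-0.18, 0.41). Class I chains passed as higher in sgUFM1 against the sgUFL1 controls for 2 of 6 tested (5.57% of all genes), HLA-B (0.48, adjusted p = 0.033) and HLA-C (0.46, 0.035), and in set 2 against the same controls for 4 of 6 (17.4% of all genes), among them HLA-B (0.64, 0.004), HLA-C (0.56, 0.0079) and HLA-E (0.48, 0.012). Reads of these near-identical genes can be split between them by counting, so single HLA values are uncertain. With offsets 0 and 1 of the 6 passed as higher in those comparisons, against 4.33% and 4.9% of all genes, and HLA-B, HLA-C and HLA-E passed in neither. In sgUFM1 against set 2, 1 of 6 was higher and 1 lower, against 19.3% and 18.5% of all genes. There HLA-B was at -0.16 (adjusted p = 0.11) and HLA-C at -0.11 (0.37). With offsets 2 were higher and 1 lower, against 16.2% and 17%, HLA-C among the higher (0.22, adjusted p = 0.0066). In sgUFM1 against set 1, 0 of 6 passed, against 4.57% higher and 5.15% lower, with HLA-B at 0.13 and HLA-C at 0.08.

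Of 6 factors that activate or assemble the proteasome, the assembly chaperone PSMG1 was lower in sgUFM1 than in the sgUFL1 controls (-0.52, adjusted p = 0.023) and in set 2 than in those controls (-0.53, 0.0041), 1 of 6 each, against 4.43% and 18.4% of all genes, and 0 higher. PSMG2 (-0.34, adjusted p = 0.077) and PSME3 (-0.27, 0.12) did not pass in the former without offsets. With offsets PSMG1 (-0.47, adjusted p = 0.02) and PSMG2 (-0.41, 0.034) were lower in it, 2 of 6 against 4.02% of all genes. In the latter 2 of 6 were lower with offsets, against 4.06%. In sgUFM1 against set 2, 2 of 6 were lower against 18.5% of all genes, and 1 with offsets against 17%. Against set 1, 0 of 6 passed. Of 6 other peptidases known to trim or destroy class I peptides, 0 passed in sgUFM1 against the sgUFL1 controls, and 1 was lower with offsets. At an unadjusted p under 0.05 there were 2, against 4282 of all 15035 genes tested. DESeq2 called 1 lower, against 947 of 15035 genes. The cytosolic peptidase TPP2 was lower in set 2 than in those controls (-0.71, adjusted p = 0.003) and higher in sgUFM1 than in set 2 (0.35, 0.0016), and both calls were lost with offsets (-0.26, adjusted p = 0.078, and 0.12, adjusted p = 0.12). Without offsets NPEPPS and BLMH passed in neither, but NPEPPS was lower in sgUFM1 than in set 2 with them (-0.43, adjusted p = 2.1e-05). Of the 6 peptidases, 2 were higher and 1 lower in sgUFM1 than in set 2, against 19.3% and 18.5% of all genes. With offsets 1 was higher and 2 lower there, against 16.2% and 17%. In set 2 against the sgUFL1 controls 1 was higher and 2 lower, against 17.4% and 18.4%, and 0 passed with offsets. Of 9 genes of the interferon gamma pathway, the transcription factor IRF1 rose in sgUFM1 against the sgUFL1 controls (0.66, SE 0.19, adjusted p = 0.044), the only one of the 9, against 5.57% of all genes, and lost its call there with offsets (0.57, 0.066). It also rose against set 2 (0.27, adjusted p = 0.012) with 3 more, against 19.3% of all genes, among them the receptor chain IFNGR2 (0.45, 0.0003). With offsets 2 of 9 were higher there, IRF1 (0.30, adjusted p = 0.0016) and IFNGR2 (0.60, 6.3e-07), against 16.2% of all genes. Against set 1, 0 of 9 passed in edgeR or DESeq2, and IRF1 was at 0.03. At an unadjusted p under 0.05 there were 3 of the 9 genes, against 3890 of all 14977 genes tested. The kinase JAK1 was lower in set 2 than in the sgUFL1 controls (-0.46, adjusted p = 0.011), but not with offsets (-0.30, 0.059).

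Across the 12 libraries the genes fell into patterns that are given as a description, since the libraries share sets, scaling and base composition. On log2 CPM, PSMB9 and TAP1, whose RefSeq starts lie close together, had r = 0.90, and PSMB9 and PSMB10 had 0.83. ERAP1 and ERAP2 had 0.81, and TAP2 had 0.79 with ERAP2 and 0.77 with ERAP1. TAP1 and TAP2, whose products form 1 transporter, had -0.65. The r with the mean GC content of the library was 0.96 for PSMB9, 0.96 for TAP1, 0.84 for PSMB10, 0.68 for PSMB8, 0.60 for TAPBPL, 0.53 for TAPBP, -0.24 for ERAP1, -0.46 for ERAP2 and -0.69 for TAP2. The GC content given for PSMB9 is 46.9%, that of its longest annotated transcript, which need not be the one expressed. With offsets its difference of guide effects went from -0.60 to -0.66. Whether base composition has a part in its level was not tested.

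By the same measure, the gene most like each member among 10533 other protein-coding genes was CLIC6 for PSMB8 (r = 0.887), IFI27L2 for PSMB9 (0.983), GUSB for PSMB10 (0.992), RGL2 for TAP1 (0.974), IGF2BP3 for TAP2 (0.973), TXLNA for TAPBP (0.982), PLXNA1 for TAPBPL (0.897), CDH11 for ERAP1 (0.975) and CCDC174 for ERAP2 (0.917). Next came TXNDC17 and NLRP3 for PSMB8, ARL2 and PEX6 for PSMB9, TINAGL1 and SLC2A6 for PSMB10, SIRT6 and CD151 for TAP1, ZNF614 and NCOA7 for TAP2, ACP2 and SEMA4C for TAPBP, TRIB3 and KDM5C for TAPBPL, DOCK2 and TGFA for ERAP1, and XRN1 and ZNF41 for ERAP2. None of these was another gene of the pathway lists. RGL2, the nearest to TAP1, is on chromosome 6 as TAP1 is. After the set means were removed, r between TAPBPL and PLXNA1 was 0.31, and between ERAP1 and CDH11 0.91.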

How the data were processed

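RNA from MDA-MB-231 cells was sequenced in 12 libraries. The authors deposited 1 table of gene-level read counts, in whole numbers, and 1 of FPKM values for the same libraries. The submitters' processing notes name GRCh38 and the tools featureCounts 2.0.0, STAR 2.7.7a and fastp 0.20.1, and no source used here gives their settings or the strand. Groups came from the titles. The members and lists were chosen with earlier results of these data known. FPKM and count columns were matched by proportionality over 12320 genes with at least 20 counts in every library.

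Genes left by filterByExpr were tested on TMM-scaled counts with edgeR's quasi-likelihood test (version 4.0.16, under R 4.3.3), and p-values were adjusted over all of them by Benjamini-Hochberg with calls at 0.05. The 6 libraries of a comparison entered each fit, and all 12 entered the difference of guide effects. CPM are TMM-scaled. Offsets per library came from a lowess trend (span 0.3) on gene GC content and length. Gene GC content was that of the longest GENCODE transcript, whichever transcript the cells express. Other alternatives were RLE scaling, no filter, DESeq2 1.42.0, a fit over 12 libraries, a replicate block, each library left out, and limma 3.58.1 on FPKM with a pseudocount of 0.5 or 0.1 on the log2 scale, keeping genes that reached 0.5 FPKM in 3 libraries, or without that filter. The test was checked on simulated data.

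Named genes are the 9 members, UFL1 and UFM1, up to 3 genes of each pathway list by smallest p in sgUFM1 against the sgUFL1 controls, PSMB5, PSMB6 and PSMB7 always, and the 3 protein-coding genes of at least 5 CPM with the highest Pearson r of log2 CPM (prior count 2) with each member. The within-library ratios were added after the data were seen. The result of 1 marker gene is not reported here.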

Additional observations from a re-analysis of the deposited data

Results flagged for a closer look

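Under the test of the difference itself, in edgeR over 12 libraries, the effects of the UFM1 and UFL1 guides differed for 6 of the 9 genes. The UFM1 guide effect minus the UFL1 guide effect on the log2 scale was 0.93 for ERAP2 (adjusted p = 0.0055), 0.73 for ERAP1 (0.0011) and 0.43 for TAP2 (0.007). It was -1.36 for PSMB10 (adjusted p = 0.022), -0.60 for PSMB9 (0.017) and -0.54 for TAP1 (0.0047). Among all genes tested, 17% were higher and 17.9% lower, and with offsets for GC content and length 3.94% and 5.44%; under these TAP2 and PSMB9 kept their calls.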

How the results depend on the processing

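Of 990 values of single genes under the alternatives, 860 kept their direction and side of the threshold, 63 lost a call, 32 gained one and 35 changed sign, with 0 of those called. The counts of genes called higher or lower moved as follows, and the cause was not tested unless fewer libraries or genes entered. In sgUFM1 against the sgUFL1 controls, 3 higher became 5 in the fit over 12 libraries, 1 with offsets, 1 with limma on FPKM at either pseudocount and 0 without its filter, and ran from 0 to 6 with a library left out. In sgUFM1 against set 1, 2 higher became 1 in the fit over 12 libraries, with the replicate block, with offsets and with limma at either pseudocount, and 0 with limma without a filter; leaving out a library gave 0 to 2 higher and 0 to 1 lower. In sgUFM1 against set 2, 4 higher became 3 in the fit over 12 libraries (without TAPBP), 3 with limma without a filter (without ERAP2) and 5 with offsets, and leaving out a library gave 0 to 2 lower. In set 1 against the sgUFL1 controls, 0 higher became 2 without a filter on counts, 2 with DESeq2 and 5 in the fit over 12 libraries, with 0 to 3 by leaving out a library. In set 2 against the sgUFL1 controls, 3 higher became 1 with offsets and 1 with limma without a filter, with 1 to 3 by leaving out a library, and 1 lower became 0 without a filter on counts, with the replicate block and with limma without a filter, with 0 to 1 by leaving out a library. In set 1 against set 2, 0 higher became 1 without a filter on counts, with DESeq2, with the replicate block and with offsets, with 0 to 2 by leaving out a library. In the difference of guide effects, 3 higher and 3 lower became 1 and 1 with offsets, 3 lower became 2 with limma without a filter (without PSMB10), and the lower count ran from 1 to 3 with a library left out.

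Sign changes with offsets gave, for sgUFM1, PSMB8 -0.09 against the sgUFL1 controls, PSMB10 0.22 and TAP1 0.01 against set 2, and TAP1 0.04 and TAPBP 0.11 against set 1. They gave PSMB8 -0.08 and ERAP1 0.22 in set 1, and PSMB8 -0.08, TAPBP -0.26 and ERAP1 0.20 in set 2, against the sgUFL1 controls, and PSMB8 0.06, TAPBP 0.35 and TAPBPL 0.23 in the difference of guide effects. TAPBP in sgUFM1 against set 1, at -0.0002, was 0.0026 with RLE, 0.0025 with DESeq2, 0.00049 in the fit over 12 libraries, 0.01 with the replicate block and 0.01 with each limma setting. With a library left out, values that changed sign ran from -0.02 to 0.08 (PSMB8) and -0.02 to 0.03 (TAP2) in sgUFM1 against the sgUFL1 controls, -0.11 to 0.05 (PSMB10) against set 2, and -0.15 to 0.02 (PSMB9), -0.51 to 0.03 (PSMB10) and -0.12 to 0.07 (TAPBP) against set 1. They ran from -0.14 to 0.03 (ERAP1) in set 1 and -0.09 to 0.32 (TAPBP) in set 2 against the sgUFL1 controls, -0.10 to 0.43 (PSMB10) between set 1 and set 2, and -0.34 to 0.11 (TAPBP) in the difference of guide effects.

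The shared replicate numbers did not pair the libraries: same-numbered correlations of deviations from the set means were, for set 1 with the sgUFL1 controls, 0.376, 0.378 and -0.212, and in no comparison did all pass 0.1. The replicate block called 4, 4 and 1 genes higher in sgUFM1 against the sgUFL1 controls, set 2 and set 1. The lowest mean counts were 64.2 for TAPBPL and 157.6 for PSMB10; how far depth limits their tests was not tested.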
